A study of Homo sapiens with 6 samples.

Results

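The genes described here are 38 genes of cholesterol and fatty acid synthesis, taken by symbol from a fixed list. That list was chosen with earlier results of these data known. All 38 symbols were found in the count tables, which hold 56638 gene rows, and all 38 were among the 14897 genes with enough counts to be tested. Reads were counted in 6 RNA-sequencing libraries of SW480, an established line grown from a human colorectal adenocarcinoma. The TGFB1 group of 3 libraries came from cells given TGF-β1, a secreted cytokine, at 10 ng/ml, and the control group of 3 libraries from cells left without it. The labels describe repeated treatment without a total time, total RNA as the material, passages 16 to 19, and for both groups RPMI-1640 medium with 10% fetal bovine serum, which itself supplies sterols and fatty acids. Separate cultures are not named for the 3 libraries of a group, and p-values thus rest on a spread that may be technical. Of 10 colon epithelial markers, KRT8 and KRT18 held nearly all counts, EPCAM stood at 6.94 ± 0.543 CPM (gene counts scaled to a common library size, mean ± SD, n = 3) in control libraries, and CDX2 and GPA33 were at 0 counts in all 6.

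Cells build cholesterol from acetyl-CoA through mevalonate, isoprenoid diphosphates, squalene and lanosterol, and they build fatty acids from acetyl-CoA through malonyl-CoA, followed by elongation and desaturation. Transcription of both branches is driven by the sterol regulatory element-binding proteins, encoded by SREBF1 and SREBF2. These factors are held in the endoplasmic reticulum by SCAP together with INSIG1 or INSIG2 when sterols are plentiful, and are carried to the Golgi and cut free when sterols are scarce. MLXIPL encodes ChREBP, a second activator of fatty acid synthesis genes, which responds to glucose metabolites. In the colon and its tumours these pathways supply membrane lipid to dividing cells.

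Promoters of 5 members are shown because the levels of these genes carry the main results, 4 of them encoding regulators and MVD encoding an enzyme of the mevalonate steps. Each runs from 250 bases before to 50 bases after a start site of RefSeq, build GRCh38.p14, written 5′ to 3′ along the gene. Capitals mark the SRE motif TCACNCCAC, the NF-Y box CCAAT and the E-box CACGTG on either strand.
SREBF1, chr17:17836937-17837236, minus strand: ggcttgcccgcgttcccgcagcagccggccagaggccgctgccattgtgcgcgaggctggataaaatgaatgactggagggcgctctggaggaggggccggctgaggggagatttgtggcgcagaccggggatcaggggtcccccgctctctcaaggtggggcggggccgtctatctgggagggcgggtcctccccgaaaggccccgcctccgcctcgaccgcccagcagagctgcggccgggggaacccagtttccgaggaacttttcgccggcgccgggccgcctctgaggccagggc
SREBF2, chr22:41832855-41833154, plus strand: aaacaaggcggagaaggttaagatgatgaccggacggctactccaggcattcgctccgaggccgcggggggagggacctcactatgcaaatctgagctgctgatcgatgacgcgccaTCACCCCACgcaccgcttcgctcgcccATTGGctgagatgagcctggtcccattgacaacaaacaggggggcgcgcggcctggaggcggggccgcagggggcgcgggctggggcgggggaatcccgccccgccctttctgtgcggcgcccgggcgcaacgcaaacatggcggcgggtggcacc
INSIG1, chr7:155297628-155297927, plus strand: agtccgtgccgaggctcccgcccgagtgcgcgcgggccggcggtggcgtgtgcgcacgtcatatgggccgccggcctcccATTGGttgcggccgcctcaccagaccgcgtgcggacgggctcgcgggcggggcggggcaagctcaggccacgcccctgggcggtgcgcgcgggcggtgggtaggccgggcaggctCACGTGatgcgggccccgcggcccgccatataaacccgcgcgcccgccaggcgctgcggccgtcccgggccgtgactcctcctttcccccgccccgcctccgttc
MLXIPL, chr7:73624473-73624772, minus strand: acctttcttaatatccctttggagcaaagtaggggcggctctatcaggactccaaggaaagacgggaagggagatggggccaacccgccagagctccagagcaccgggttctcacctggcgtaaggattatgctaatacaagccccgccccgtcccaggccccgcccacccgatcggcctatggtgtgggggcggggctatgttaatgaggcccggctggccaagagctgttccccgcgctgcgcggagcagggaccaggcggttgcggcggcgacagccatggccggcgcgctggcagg
MVD, chr16:88663042-88663341, minus strand: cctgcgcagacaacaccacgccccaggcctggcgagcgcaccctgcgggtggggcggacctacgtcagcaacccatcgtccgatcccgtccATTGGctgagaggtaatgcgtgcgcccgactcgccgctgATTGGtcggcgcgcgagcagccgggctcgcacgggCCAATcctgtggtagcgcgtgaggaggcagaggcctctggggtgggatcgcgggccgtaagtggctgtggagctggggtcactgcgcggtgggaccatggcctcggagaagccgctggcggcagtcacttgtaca

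The SREBF2 window held 1 SRE, starting at position −133 from the start site, and 1 NF-Y box at −106. MVD held 3 NF-Y boxes and no SRE, INSIG1 held 1 NF-Y box and 1 E-box, and neither SREBF1 nor MLXIPL held any of these motifs. Promoters were in the table for 34 of the 38 members, ACAT2, FASN, FDFT1 and SQLE being without one. An NF-Y box stood in at least 1 promoter of 24 of these 34 members (70.6%), beside 43.4% of the 9624 tested genes with a promoter in the table and 34.6% of all 35116 promoters. The SRE letters stood in 1 of 34 members (2.94%) and in 1.49% of tested genes (1.13% of all promoters). E-boxes were found for ELOVL5, INSIG1, LSS and SCAP, 11.8% of the members beside 12.5% of tested genes (7.26% of all promoters). The GC box GGGCGG, not marked above, stood in 94.1% of the members and 77.1% of tested genes (45.0% of all promoters). A gene with several start sites in the table counts once in the shares of genes, and a match is a description of letters only. Sites with other letters or outside these windows were not searched, so a gene without a match may still hold a site.

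Most of the lipid synthesis genes were lower in cells given TGF-β1. Of the 38 members 23 fell, 4 rose and 11 did not pass the test, by edgeR's quasi-likelihood test, adjusted over all genes by Benjamini-Hochberg, with 0.05 as the threshold. The same rule called 47.3% of all 14897 tested genes, 23.9% lower and 23.4% higher. The 23 that fell thus made up 60.5% of the members. The 4 that rose, INSIG1, PMVK, EBP and ELOVL6, made up 10.5%. Most changes were small, as they were over all tested genes, where the median absolute log2 fold change was 0.236. With its sign, the median log2 fold change of the members was −0.23, beside 0.00 over all tested genes. A fall of at least 1.5-fold was called for 6 of the 38 members, MLXIPL, SREBF1, TM7SF2, ACAT2, LPIN1 and ACACB. A rise of that size was called for 1 of the 38, ELOVL6. Over all tested genes 18.3% changed that much, 8.08% lower and 10.3% higher. The share of members that changed by this size in either direction was near that 18.3%, with more falls and fewer rises. In 21 members the 3 TGFB1 libraries all lay below the 3 control libraries and in 4 all above, beside 27.3% and 27% of tested genes (54.2% in either direction). In RNA from whole cultures, fewer cells of a kind and less RNA per cell cannot be told apart.

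**Figure D1:**
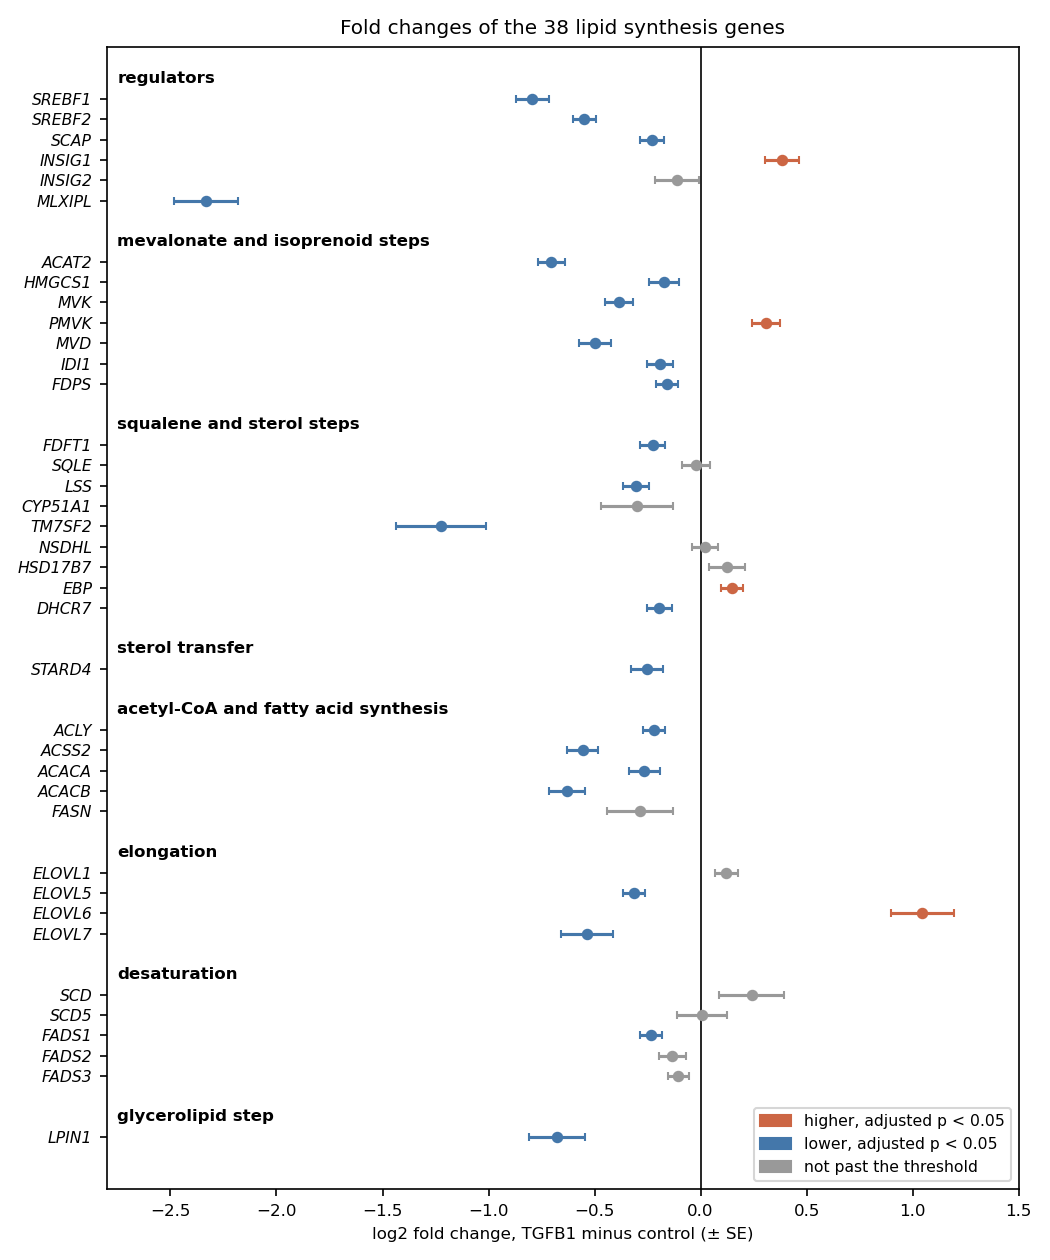
Log2 fold change of each of the 38 genes, TGFB1 minus control, with its standard error (bars), grouped by role on the vertical axis; blue marks the 23 genes that fell, orange the 4 that rose and grey the 11 that did not pass. MLXIPL lies farthest to the left at −2.33 and ELOVL6 farthest to the right at 1.05.

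Libraries of a group differed from each other in these genes in a shared way, a pattern noticed after the values were seen. Control 2 was the lowest of the 3 control libraries in 25 of 38 members (65.8%), while it was the lowest in 35.9% of all tested genes. TGFB1 2 was the highest of its group in 22 members (57.9%, beside 34.6% of tested genes) and TGFB1 3 the lowest in 22 (57.9%, beside 40.6%). Without control 2, 25 members were lower and 5 higher. Without TGFB1 2 the counts were 23 and 5, and without TGFB1 3 they were 21 and 4. The number at least 1.5-fold lower ranged from 4 without TGFB1 3 to 9 without TGFB1 2.

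**Figure D2:**
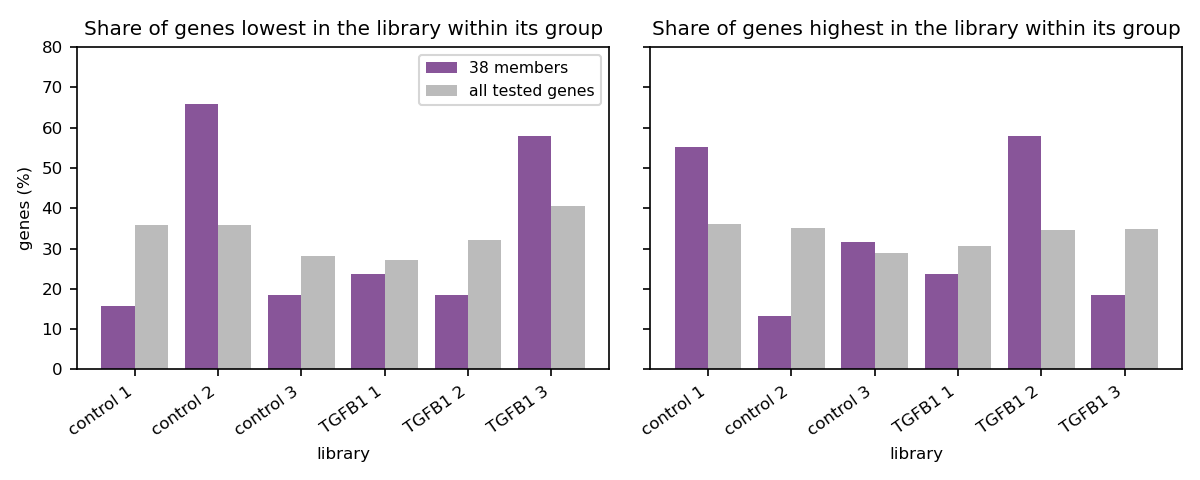
Share of genes (percent, vertical axis) for which each of the 6 libraries (horizontal axis) was the lowest (left) or highest (right) of the 3 in its group, for the 38 members (purple) and all 14897 tested genes (grey). Control 2 was lowest in 65.8% of the members and TGFB1 2 highest in 57.9%.

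Of the 6 regulators 4 fell, 1 rose and 1 did not pass. The shares were 66.7% lower and 16.7% higher, beside 23.9% and 23.4% of all tested genes. SREBF1 had 418, 359.5 and 419 CPM in control and 232, 256 and 202 CPM in TGFB1 libraries, in the order of libraries 1, 2 and 3, which holds for all values by library. The groups did not overlap, and the gene fell 1.73-fold (log2 fold change −0.79 ± 0.079, edgeR adjusted p = 1.2e-06). SREBF1 encodes the factor best known for fatty acid synthesis genes. SREBF2, whose product acts mainly on cholesterol genes, had 218, 193 and 194 CPM in control and 137, 147 and 129 CPM in TGFB1 libraries. It fell 1.46-fold (−0.55 ± 0.056, edgeR adjusted p = 2.51e-09), again with every TGFB1 library below every control library. SCAP, the escort of both factors, fell less, 1.17-fold, from 118 ± 2.35 to 100.2 ± 8.02 CPM (edgeR adjusted p = 0.00133).

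INSIG1, which retains the SCAP complex and is itself a target of these factors, went the other way. It had 136, 105 and 127 CPM in control and 152, 175 and 153 CPM in TGFB1 libraries. All TGFB1 libraries lay above all control libraries, a rise of 1.30-fold (0.38 ± 0.081, edgeR adjusted p = 0.00124). Its relative INSIG2 stood at 15.3 ± 1.99 CPM in control and 14.1 ± 0.677 CPM in TGFB1 libraries, overlapped between the groups and did not pass (edgeR adjusted p = 0.398).

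MLXIPL showed the greatest fall of the 38 genes. It had 21.9, 16.1 and 23.3 CPM in control and 3.33, 4.83 and 3.92 CPM in TGFB1 libraries, with no overlap. This is a fall of 5.03-fold (−2.33 ± 0.15, edgeR adjusted p = 2.17e-12), on 879 counts over the control and 180 over the TGFB1 libraries. MLXIP, from a list of further regulators, encodes the related factor MondoA and went from 108 ± 7.90 to 189 ± 11.9 CPM, a rise of 1.75-fold (edgeR adjusted p = 1.08e-12). Summed over the 6 regulators, the level was 877 ± 63.7 CPM in control and 646 ± 55.3 CPM in TGFB1 libraries. SREBF1 and SREBF2 made up the greater part of this sum, which also holds INSIG1, which rose.

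**Figure D3:**
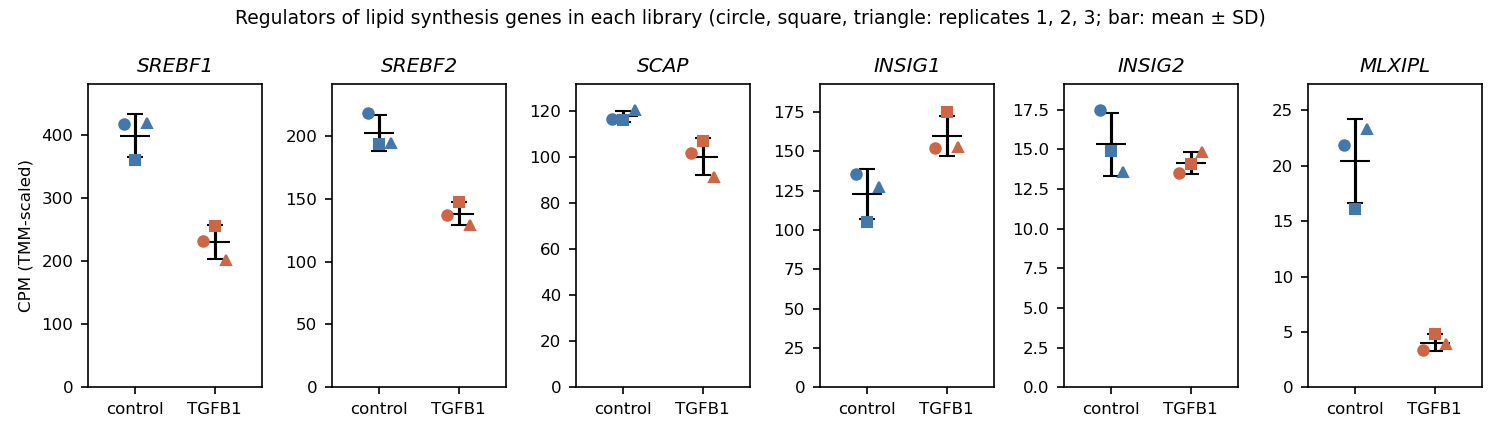
CPM of the 6 regulators (vertical axes, from 0, a separate scale for each gene) in the 3 control and 3 TGFB1 libraries, with symbols for replicate numbers and bars for mean ± SD. SREBF1, SREBF2, SCAP and MLXIPL are lower in every TGFB1 library, INSIG1 is higher in every TGFB1 library, and INSIG2 overlaps.

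All 7 enzymes of the mevalonate and isoprenoid steps changed, 6 lower and 1 higher. That is 85.7% lower and 14.3% higher, beside 23.9% and 23.4% of all tested genes. ACAT2, the cytosolic thiolase that joins acetyl-CoA units, had 57.9, 59.1 and 61.2 CPM in control and 37.98, 35.6 and 35.8 CPM in TGFB1 libraries. The groups lay far apart relative to their spread, a fall of 1.63-fold (−0.70 ± 0.064, edgeR adjusted p = 2.64e-10). In GENCODE 29, 69.6% of the longest ACAT2 transcript is overlapped by exons on the opposite strand, of TCP1 and SOD2 among others. The sources used here do not say whether reads were counted by strand, which leaves the level of ACAT2 uncertain. Overlaps of over 5% also touch HMGCS1 (20.1%), LSS (11.5%), FDFT1 (7.44%), SREBF2 (5.22%), IDI1 (5.13%) and, as given with its values, FDPS.

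MVD, which makes isopentenyl diphosphate, had 52.4, 43.6 and 46.3 CPM in control and 33.6, 35.9 and 30.9 CPM in TGFB1 libraries, and fell 1.41-fold without overlap (edgeR adjusted p = 2.75e-06). MVK, mevalonate kinase, fell 1.31-fold, from 48.6 ± 1.61 to 37.2 ± 1.66 CPM (edgeR adjusted p = 1.81e-05). PMVK, the kinase between these 2 steps, had 40.5, 44.5 and 41.7 CPM in control and 54.9, 49.0 and 53.0 CPM in TGFB1 libraries. It rose 1.24-fold with no overlap (edgeR adjusted p = 3.55e-04). Adjacent steps of the same path thus moved in opposite directions.

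The calls on the other 3 genes, HMGCS1, IDI1 and FDPS, each ended when a single library was left out or the scaling was changed. HMGCS1, the cytosolic synthase of HMG-CoA, had 139, 112 and 125 CPM in control and 101, 118 and 114 CPM in TGFB1 libraries. The groups overlapped and the call lay at the threshold (log2 fold change −0.17 ± 0.070, edgeR adjusted p = 0.0475). Leaving out control 1 or control 3 ended it (edgeR adjusted p = 0.250, with a log2 fold change of −0.10, and 0.0862), as did leaving out TGFB1 1 or TGFB1 3 (0.245 and 0.0903), the other scalings tried and DESeq2 (DESeq2 adjusted p = 0.0714). IDI1, the isomerase of isopentenyl diphosphate, fell 1.14-fold (edgeR adjusted p = 0.0106). Its call was lost when control 1 was left out (edgeR adjusted p = 0.0668) or when libraries were scaled by size only (0.0725). FDPS, farnesyl diphosphate synthase, fell 1.12-fold, from 136 ± 3.57 to 121 ± 6.25 CPM (edgeR adjusted p = 0.0124). That call was lost without control 3 (edgeR adjusted p = 0.0602) and by size-only scaling (0.106), and 32.1% of the longest FDPS transcript is overlapped by the antisense gene RUSC1-AS1. The summed level of the 7 genes was 537 ± 25.3 CPM in control and 460.5 ± 6.45 CPM in TGFB1 libraries.

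Of the 9 enzymes from squalene to cholesterol 4 were lower, 1 was higher and 4 did not pass the test. The shares were 44.4% lower and 11.1% higher, beside 23.9% and 23.4% of all tested genes. Calls in either direction, 5 of 9, came near the 47.3% of all tested genes. TM7SF2, a sterol C14 reductase, had 3.52, 4.16 and 4.81 CPM in control and 1.83, 1.59 and 1.96 CPM in TGFB1 libraries. It fell 2.34-fold without overlap (−1.22 ± 0.21, edgeR adjusted p = 2.05e-05), although at 180 and 79 counts per group it was a minor transcript. LBR, which encodes the lamin B receptor and has the same reductase activity, was far higher in counts and fell 1.28-fold, from 159 ± 9.17 to 124 ± 5.06 CPM (edgeR adjusted p = 1.99e-06). LSS, lanosterol synthase, had 177, 157 and 179 CPM in control and 142, 148 and 125 CPM in TGFB1 libraries, and fell 1.23-fold with no overlap (edgeR adjusted p = 1.74e-04). FDFT1, squalene synthase, had 217, 182 and 210.2 CPM in control and 169, 187 and 165 CPM in TGFB1 libraries. It fell 1.17-fold (edgeR adjusted p = 0.00284), with TGFB1 2 above control 2. DHCR7, which carries out a last reduction to cholesterol, fell 1.14-fold (edgeR adjusted p = 0.00657). The call was lost without control 3 (edgeR adjusted p = 0.0674) and by size-only scaling (0.0570).

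SQLE, squalene epoxidase, which adds the oxygen of the sterol hydroxyl, had 65.8, 59.7 and 58.0 CPM in control and 60.1, 63.9 and 56.5 CPM in TGFB1 libraries. The groups overlapped, at a log2 fold change of −0.02 ± 0.065 with a normal 95% interval from −0.15 to 0.11 (edgeR adjusted p = 0.824). NSDHL, a sterol dehydrogenase, was as close, at 60.7 ± 1.71 CPM in control and 61.5 ± 1.67 CPM in TGFB1 libraries (0.02 ± 0.060, edgeR adjusted p = 0.810). HSD17B7, a sterol ketoreductase, stood at 21.1 ± 1.89 CPM in control and 23.0 ± 0.857 CPM in TGFB1 libraries (edgeR adjusted p = 0.234). EBP, the sterol isomerase, went from 158 ± 0.881 to 175 ± 9.75 CPM, a rise of 1.11-fold (edgeR adjusted p = 0.0159). That rise no longer passed without control 3 or without TGFB1 3 (edgeR adjusted p = 0.0768 and 0.0742).

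CYP51A1, the lanosterol demethylase, stood at only 6.13 ± 1.02 CPM in control and 4.97 ± 1.11 CPM in TGFB1 libraries and did not pass (edgeR adjusted p = 0.153). It passed without control 2 or TGFB1 1 (edgeR adjusted p = 0.0438 and 0.0346). Its 3 named pseudogenes together held 1076 counts over the 6 libraries, more than the 483 of the gene itself. Reads aligned to several places are in no gene's count, and the level of CYP51A1 is uncertain. HSD17B7 has 2 named pseudogenes with 188 counts beside 1924 of its own. STARD4, which carries cholesterol between membranes, fell 1.19-fold, from 42.1 ± 2.73 to 35.2 ± 3.70 CPM (edgeR adjusted p = 0.00747), which no longer passed without TGFB1 3 (edgeR adjusted p = 0.0538). The summed level of the 9 squalene and sterol enzymes was 829.8 ± 43.9 CPM in control and 764 ± 27.4 CPM in TGFB1 libraries.

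Of the 5 genes that make acetyl-CoA, malonyl-CoA and palmitate, 4 fell and FASN did not pass. ACSS2, which activates acetate, had 60.5, 51.6 and 58.8 CPM in control and 37.7, 42.7 and 35.4 CPM in TGFB1 libraries. It fell 1.47-fold without overlap (−0.56 ± 0.074, edgeR adjusted p = 3.61e-07). ACLY, which splits citrate to acetyl-CoA, had 619.9, 547 and 602 CPM in control and 512, 536 and 469.9 CPM in TGFB1 libraries. It fell 1.16-fold (edgeR adjusted p = 0.00107), also without overlap, though control 2 and TGFB1 2 were close. The genes of both cytosolic routes to acetyl-CoA were thus lower.

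Both acetyl-CoA carboxylases fell. ACACB, whose product sits at mitochondria and restrains fatty acid oxidation, had 41.7, 34.9 and 41.1 CPM in control and 27.3, 26.6 and 21.9 CPM in TGFB1 libraries. It fell 1.55-fold without overlap (−0.63 ± 0.085, edgeR adjusted p = 4.74e-07). ACACA, the cytosolic enzyme of fatty acid synthesis, had 280.5, 229 and 256 CPM in control and 212, 232 and 191 CPM in TGFB1 libraries. It fell 1.202-fold (edgeR adjusted p = 0.00684), and here TGFB1 2 lay above control 2.

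FASN, fatty acid synthase, was the most counted member, at 1120.0, 901 and 1112 CPM in control and 887, 977 and 705 CPM in TGFB1 libraries. The groups overlapped through control 2 and TGFB1 2. The difference did not pass (log2 fold change −0.29 ± 0.16, normal 95% interval −0.59 to 0.02, edgeR adjusted p = 0.211). Without control 2 it passed (log2 fold change −0.39, edgeR adjusted p = 0.0448), and with any other single library left out it did not. Without TGFB1 3 the log2 fold change was −0.17 (edgeR adjusted p = 0.202). The summed level of the 5 genes was 1985 ± 194 CPM in control and 1638 ± 198 CPM in TGFB1 libraries, of which FASN made up the greater part. LPIN1, the phosphatidate phosphatase that leads to triglyceride and phospholipid, had 60.7, 43.4 and 58.6 CPM in control and 34.5, 37.9 and 28.8 CPM in TGFB1 libraries. It fell 1.601-fold with no overlap (−0.68 ± 0.13, edgeR adjusted p = 0.00155).

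**Figure D4:**
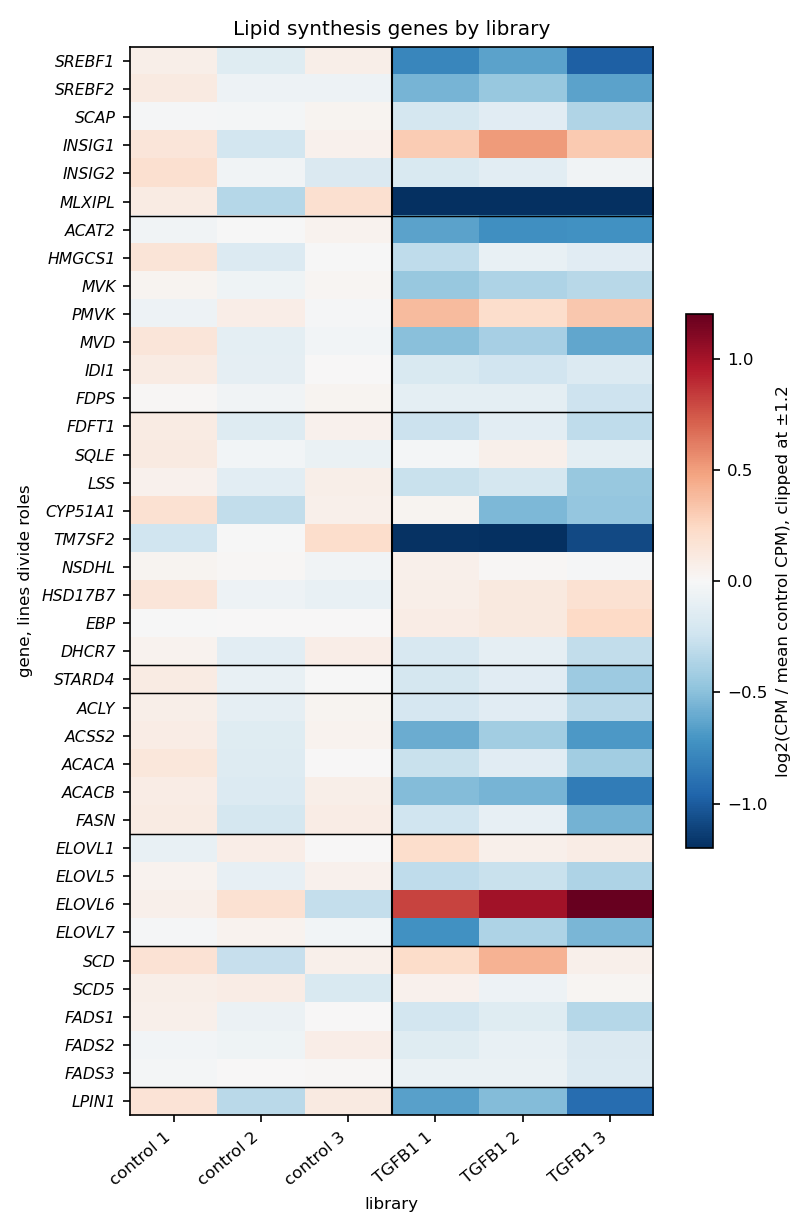
Log2 ratio of CPM to the control mean (colour, clipped at 1.2 in both directions) for the 38 genes (rows, in the order of their roles) in the 6 libraries (columns). Most rows are blue in all 3 TGFB1 columns. INSIG1, PMVK, ELOVL6, SCD, EBP, ELOVL1 and HSD17B7 lie above the control mean in all 3, some only slightly. In many rows control 2 is paler or bluer than control 1 and control 3, and TGFB1 2 is less blue than TGFB1 3.

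The elongases, which lengthen fatty acids after palmitate, split. ELOVL6, which extends palmitate to stearate, had 5.43, 5.90 and 4.27 CPM in control and 9.11, 10.5 and 12.8 CPM in TGFB1 libraries. It rose 2.06-fold without overlap (1.05 ± 0.15, edgeR adjusted p = 9.49e-07), from a low level of 223 counts over the control libraries. ELOVL5, which acts on polyunsaturated chains, had 209, 189 and 209 CPM in control and 164, 168 and 157 CPM in TGFB1 libraries. It fell 1.24-fold (edgeR adjusted p = 8.29e-06) and ELOVL7 fell 1.45-fold, from 10.5 ± 0.295 to 7.21 ± 0.905 CPM (edgeR adjusted p = 7.23e-04). ELOVL1, an elongase of very long saturated chains, stood at 132 ± 7.99 CPM in control and 144 ± 8.13 CPM in TGFB1 libraries and did not pass (edgeR adjusted p = 0.0722). It passed as higher without control 2 (edgeR adjusted p = 0.0336) and when either TGFB1 2 or TGFB1 3 was left out (0.0471 and 0.0458). With all 6 libraries it also passed under size-only scaling (edgeR adjusted p = 0.00753) and under upper-quartile scaling (0.0327). Its log2 fold change of 0.12 ± 0.055 shrank to 0.07 without control 1 (edgeR adjusted p = 0.334) and to 0.07 without TGFB1 1 (0.378). The summed level of the 4 elongases, to which ELOVL6 adds few counts, was 350.4 ± 5.51 CPM in control and 325 ± 7.74 CPM in TGFB1 libraries.

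Of the 5 desaturases 1 fell and 4 did not pass, so that 20.0% were lower, near the 23.9% of all tested genes. SCD, which introduces the first double bond into stearate and palmitate, had 546, 399.9 and 506 CPM in control and 564, 647 and 503 CPM in TGFB1 libraries. The groups overlapped and no difference was called (log2 fold change 0.24 ± 0.15, normal 95% interval −0.06 to 0.54, edgeR adjusted p = 0.275). The log2 fold change of SCD was 0.11 without control 2 and 0.14 without TGFB1 2. SCD5, its relative, stood at 9.98 ± 1.01 CPM in control and 10.0 ± 0.377 CPM in TGFB1 libraries (edgeR adjusted p = 0.974). FADS1, the delta-5 desaturase of polyunsaturated fatty acids, had 433, 394 and 417 CPM in control and 356, 375 and 327 CPM in TGFB1 libraries. It fell 1.18-fold without overlap (edgeR adjusted p = 4.18e-04). FADS2 and FADS3 lay below control in every TGFB1 library as well but did not pass, at log2 fold changes of −0.13 ± 0.063 and −0.10 ± 0.050 (edgeR adjusted p = 0.0857 and 0.0869). The summed level of the 5 desaturases was 1098 ± 94.6 CPM in control and 1109 ± 101 CPM in TGFB1 libraries, of which SCD and FADS1 made up the greater part. The log2 ratio of the sums, 0.014, turned to −0.053 without control 2 and to −0.053 without TGFB1 2.

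Ratios of related members within each library, which hardly depend on scaling between libraries, were compared for 6 pairs. With 3 libraries against 3 the two-sided exact permutation test cannot give less than 0.1, so none of these could pass 0.05. The log2 ratio of ELOVL5 to ELOVL6 was 5.16 ± 0.28 in control and 3.87 ± 0.27 in TGFB1 libraries (exact permutation p = 0.1, adjusted p = 0.15 over the 6 pairs). INSIG1 to INSIG2 was 2.96 ± 0.21 in control and 3.45 ± 0.14 in TGFB1 libraries (exact permutation p = 0.1, adjusted p = 0.15). ACACA to ACACB was 2.68 ± 0.056 in control and 3.05 ± 0.096 in TGFB1 libraries (exact permutation p = 0.1, adjusted p = 0.15). SREBF1 to SREBF2 was 0.98 ± 0.11 in control and 0.73 ± 0.081 in TGFB1 libraries (exact permutation p = 0.1, adjusted p = 0.15). In each of these 4 pairs the 3 TGFB1 ratios lay entirely on 1 side of the 3 control ratios. For FADS1 to FADS2 (exact permutation p = 0.2, adjusted p = 0.24) and SCD to SCD5 (exact permutation p = 0.5, adjusted p = 0.5) they overlapped. The SCD to SCD5 difference shrank from 0.24 to 0.06 without control 2 and to 0.11 without TGFB1 2.

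For an order of levels between genes, CPM were divided by the length of the longest GENCODE 29 coding transcript in kilobases. On this scale ACLY was first in control libraries at 136 ± 8.80 CPM per kb and FASN second at 122 ± 14.5, neighbours whose values overlapped within their SD. SREBF1 had rank 3 at 93.7 ± 7.96, within the SD of FDPS, FADS1 and SCD at 91.8 ± 2.42, 91.7 ± 4.33 and 90.3 ± 14.1. In TGFB1 libraries SREBF1 stood at 54.0 ± 6.39 CPM per kb, rank 10 of 38, while SCD had rank 2 at 107 ± 13.4, between ACLY at 117 ± 7.73 and FASN at 99.95 ± 16.2, each within the SD of its neighbour. The lowest member in control libraries was ELOVL6 at 0.806 ± 0.130 CPM per kb. In TGFB1 libraries the lowest were TM7SF2 at 1.04 ± 0.110 and MLXIPL at 1.23 ± 0.230. A cell using another transcript than the longest would shift these per-length levels.

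Further genes of the same pathways were read from 7 lists of 94 genes, of which 83 were tested. Of these 83, 20 rose and 38 fell, 24.1% and 45.8%, beside 23.4% and 23.9% of all tested genes. In the other sterol synthesis genes 1 of 7 tested rose and 5 fell (median log2 fold change −0.34). ACAT1, the mitochondrial thiolase, fell 2.15-fold, from 110.0 ± 2.53 to 51.1 ± 3.15 CPM (edgeR adjusted p = 2.56e-15). C14orf1, now named ERG28, fell 1.23-fold (edgeR adjusted p = 2.15e-04). In the other fatty acid synthesis and elongation genes 1 of 13 tested rose and 7 fell (median log2 fold change −0.21). SLC25A1, which exports citrate from mitochondria for ACLY, fell 1.31-fold (edgeR adjusted p = 6.33e-08), and ME1, malic enzyme, which supplies NADPH, fell 1.42-fold (edgeR adjusted p = 4.55e-08). Of the dehydratases of elongation, PTPLB (now HACD2) fell 1.22-fold and PTPLAD1 (now HACD3) rose 1.19-fold.

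In the list of sterol sensing and SREBF processing genes, which also holds MLX and MLXIP, 4 of 12 tested rose and 4 fell. MLXIP was among those that rose and MLX among those that fell. The shares were 33.3% each (median log2 fold change −0.08), beside 23.4% higher and 23.9% lower of all tested genes. MBTPS2, the protease that makes the final cut in these precursors, fell 1.28-fold, from 44.5 ± 2.71 to 34.8 ± 0.975 CPM (edgeR adjusted p = 9.08e-05). NR1H3, the oxysterol receptor LXRα, a known activator of SREBF1, fell 1.59-fold, from 47.7 ± 0.796 to 30.0 ± 0.531 CPM (edgeR adjusted p = 1.42e-09). Among genes of sterol uptake, esterification and export 6 of 13 tested rose and 4 fell, 46.2% and 30.8% (median log2 fold change 0.04). SOAT1, which stores cholesterol as its ester, had 469, 457 and 451 CPM in control and 167, 168 and 173 CPM in TGFB1 libraries. It fell 2.71-fold without overlap (−1.44 ± 0.047, edgeR adjusted p = 2.48e-20). The lipoprotein receptor gene LRP8 fell 1.27-fold, while NPC2 and STARD3, which move cholesterol out of late endosomes, rose 1.32-fold and 1.37-fold.

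The cholesterol exporters ABCA1 and ABCG1, chosen after their values were seen, rose 1.77-fold and 2.21-fold from low levels, ABCA1 from 2.52 ± 0.446 to 4.39 ± 1.41 CPM (edgeR adjusted p = 0.00300) and ABCG1 from 1.86 ± 1.21 to 4.06 ± 0.893 CPM (edgeR adjusted p = 0.00696). Without TGFB1 2 the log2 fold change of ABCA1 moved from 0.82 to 0.53 and the call ended (edgeR adjusted p = 0.0656). The ABCG1 call ended in DESeq2 (DESeq2 adjusted p = 0.0968). Without control 1 the log2 fold change of ABCG1 moved from 1.15 to 1.73. In the glycerolipid list 5 of 12 tested rose and 5 fell, 41.7% each (median log2 fold change 0.10). AGPAT9, now named GPAT3, which starts glycerolipid synthesis, fell 4.81-fold, from 8.94 ± 0.429 to 1.86 ± 0.390 CPM (edgeR adjusted p = 8.06e-12), and its relative AGPAT6, now GPAT4, rose 1.38-fold. The acyltransferase AGPAT3 fell 2.03-fold and AGPAT2 rose 1.34-fold. Among acyl-CoA synthetases and transporters 2 of 9 tested rose and 2 fell (median log2 fold change 0.02). These shares, 22.2% each, were near the 23.4% higher and 23.9% lower of all tested genes. ACSL4, which prefers arachidonate, went from 75.3 ± 7.26 to 149 ± 1.65 CPM, a rise of 1.98-fold (edgeR adjusted p = 3.71e-14), and ACSL3 fell 1.76-fold, from 244 ± 20.8 to 139 ± 7.16 CPM (edgeR adjusted p = 1.23e-12). SLC27A2 fell 1.45-fold, and the rise of SLC27A4 (1.12-fold) ended without control 3 (edgeR adjusted p = 0.0652).

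Genes of fatty acid oxidation, the opposing pathway, were lower too: 1 of 17 tested rose and 11 fell (median log2 fold change −0.29). The shares were 5.88% higher and 64.7% lower, beside 23.4% and 23.9% of all tested genes. PPARGC1A, a coactivator of mitochondrial genes, fell 2.05-fold, from 29.9 ± 2.501 to 14.5 ± 1.00 CPM (edgeR adjusted p = 7.16e-11). CPT1A, the carnitine transferase that admits fatty acids to mitochondria, fell 1.35-fold (edgeR adjusted p = 1.2e-08), and the dehydrogenases ACADVL and ACADM fell 1.42-fold and 1.29-fold.

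**Figure D5:**
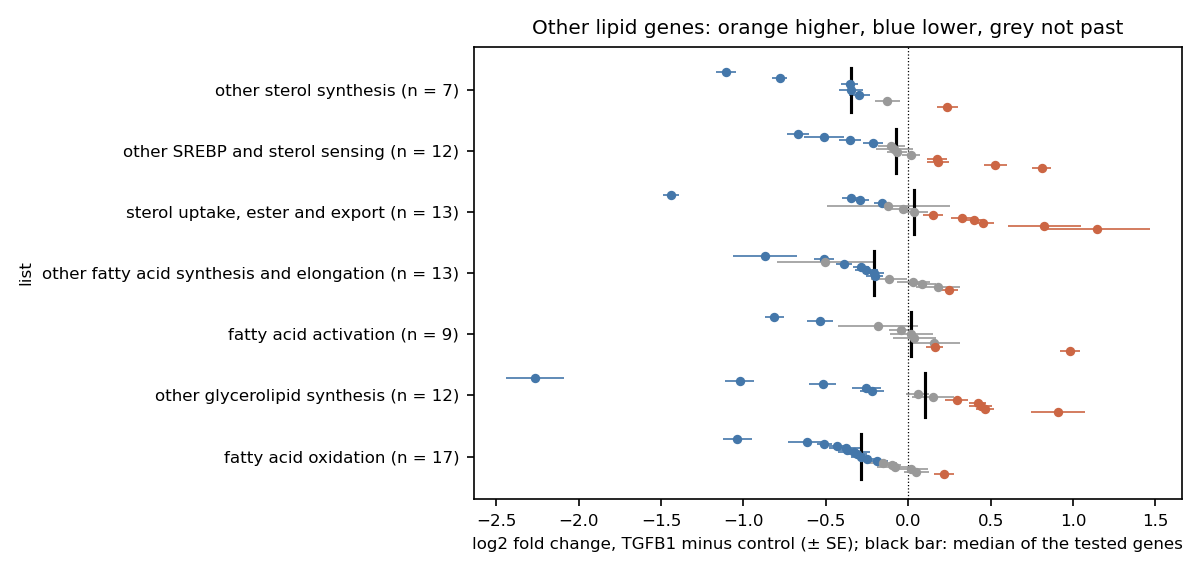
Log2 fold change with standard error (horizontal axis) of the 83 tested genes of 7 further lipid lists (vertical axis); orange is higher, blue lower, grey not past the test, and black bars are list medians. Sterol synthesis, fatty acid synthesis and fatty acid oxidation lie mostly left of 0, and the other lists spread to both sides.

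Total counts in genes ran from 13012898 to 16005222 per library and ELOVL7, near 10 CPM, had 451 counts over the 3 control libraries. The colon epithelial markers, 3 of 10 tested and 2 of those lower, gave summed levels of 1896 to 1910.3 CPM in control and 1781 to 1824 CPM in TGFB1 libraries. Of 9 fibroblast markers 5 were tested and all 5 rose, COL1A1, DCN, PDGFRB, FAP and THY1, though THY1 overlapped between the groups. Over all tested genes 23.4% rose and 23.9% fell. COL1A2, COL3A1 and PDGFRA had 0 counts in control and at most 3 over the TGFB1 libraries. LUM went from 9 to 3 counts, and FAP had 1 control count. Sums of the 9 were 91.0 to 95.03 CPM in control and 120.1 to 136 CPM in TGFB1 libraries, mostly from COL1A1. The part of these markers in the falls of lipid genes was not tested. Markers of adipocytes summed to at most 0.489 CPM and of hepatocytes to at most 0.306 CPM in any library, with ADIPOQ and ALB at 0 counts. Of 7 immune markers 2 were tested, 1 of which rose, and PTPRC was at 0. Of 5 endothelial markers 1 was tested and fell, with PECAM1 and KDR at 0. With so few tested genes per list, these counts of calls do not describe a cell type.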

How the data were processed

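RNA-sequencing libraries of SW480 cells, 3 control and 3 TGFB1, were grouped and numbered by their titles. The authors deposited a table of raw read counts per gene symbol for each library. Per the submitters' processing notes, the tools were TopHat2 2.0.11, TopHat and HTSeq and the genome hg19 or GRCh37, without a role for each. Annotation, strand setting and read filters: not given in the sources used here. Closing lines of the tables are no genes and stayed out: reads without a feature were 5.44% to 5.98%, ambiguous reads 9.01% to 9.43% and reads aligned to several places 12.0% to 12.5% of all lines.

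Counts were filtered with filterByExpr (minimum count 10, minimum total 15), scaled by TMM and tested over all genes with edgeR 4.0.16 (robust glmQLFit and glmQLFTest, Benjamini-Hochberg, threshold 0.05) in R 4.3.3. Limma 3.58.1 and DESeq2 1.42.0 served as alternatives. CPM are counts per TMM-scaled library size, levels are mean ± SD over 3 libraries, and the error of a log2 fold change is its SE from the F statistic. Within-library ratios used CPM plus 0.5. Each library counted as 1 replicate. Libraries of a group differed beyond counting noise (chi-square over its degrees of freedom 1.76 to 4.34), which does not show that they came from separate cultures. The test was tried on simulated data.

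The 38 members and the other lists were chosen with earlier results of these data known. Named were all members and, of each other lipid list, the 4 tested genes with the lowest p. Of these, 2 genes are not reported here. Symbols absent from the tables were matched through older names for 7 genes. Promoters are from RefSeq (GRCh38.p14), another build than that of the counts, and no coordinate was moved between builds. Transcript lengths and overlaps are from GENCODE 29.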

Additional observations from a re-analysis of the deposited data

How the results depend on the processing

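Of the 27 called members 21 kept their call and direction under all 14 alternatives run, namely DESeq2, limma-voom, 3 scalings, 2 filters, a block for the replicate number, and each library left out in turn. HMGCS1, IDI1, FDPS, EBP, DHCR7 and STARD4 lost theirs under at least 1. No called gene named in the text changed direction. Members lower ranged 20 to 25 and members higher 3 to 5 when 1 library was left out, and 19 and 5 were called with library size alone. That scaling moved the median log2 fold change of all genes by 0.0567 and the calls over all genes from 3483 higher and 3561 lower to 4216 and 2879, and it moved the log2 ratio of the summed elongases from −0.11 to −0.054. Same-numbered libraries did not deviate together (correlations of −0.11 to 0.03), so the numbers were not taken as pairs. With the replicate number as a block, 24 members were lower and 5 higher, and FASN (edgeR adjusted p = 8.79e-05) and SCD (0.00130) passed, FASN as lower and SCD as higher. The cause was not tested. Depth limits precision at low counts, as for TM7SF2 with 79 counts over the 3 TGFB1 libraries.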
